A study of Danio rerio with 6 samples.

Results

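The 200 genes described here were those whose level stood furthest above all other libraries in Mcpip1 WT replicate 1, the pool of zebrafish embryos with the highest share of *zc3h12a* reads. They were chosen by their CPM, the count of a gene per 1000000 gene counts of its library. Among the 12600 genes with a mean raw count of 50 or more (of 32057 genes counted, *zc3h12a* left out), each was given a score, the log2 of its CPM plus 1 in Mcpip1 WT replicate 1 over the highest CPM plus 1 of the other 5 libraries. The 200 highest scores, 1.59% of the ranked genes, made up the set. Because the choice used all 6 libraries and set 1 pool against 5, levels in Mcpip1 WT replicate 1 are a description here and no test was made of them.

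The 6 libraries came from viable AB/TL embryos collected at the shield stage (6 hpf, hours post-fertilization) and injected at the 1-cell stage with mRNA of zebrafish *zc3h12a* joined to a fluorescent reporter. In 3 libraries the mRNA encoded wild-type Mcpip1 (Mcpip1 WT), and in 3 it encoded Mcpip1 with the D112N substitution in its RNase domain (Mcpip1 DN), which removes catalytic activity. Each library was a pool of embryos, both groups carried injected *zc3h12a* mRNA, and no uninjected library was used here, so a value common to all 6 libraries cannot be set against embryos without the injection. The labels do not say whether replicates came from separate clutches or injection days, so p-values measure only the spread between these pools.

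Mcpip1, also called Regnase-1, is an endoribonuclease that cleaves stem-loops in selected mRNAs, many of them of inflammation, and so shortens their life. At the shield stage a zebrafish embryo still holds transcripts laid down in the egg, such as those of the egg coat, beside those of its own genome. The endoplasmic reticulum folds proteins bound for secretion, the cell surface or the lysosome and removes those that fail to fold.

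*Zc3h12a* itself (ENSDARG00000005271) had 7435 CPM in Mcpip1 WT replicate 1, against 883 and 1202 CPM in Mcpip1 WT replicates 2 and 3 and 1498, 727 and 397 CPM in Mcpip1 DN replicates 1, 2 and 3. The first pool was thus 4.96-fold above the next highest library, which was a Mcpip1 DN library, and the remaining Mcpip1 WT pools lay within the range of Mcpip1 DN. Injected and endogenous transcripts were counted together. The label of the set as genes of the pool strongest in *zc3h12a* therefore fits the counts, but that pool is a single library.

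Total gene counts lay between 22581287 and 24662219 in Mcpip1 WT and between 17686041 and 23944732 in Mcpip1 DN. Mcpip1 WT replicate 1 had the highest share of reads aligned to several places (7.92%, against 4.54% to 6.84% in the other 5), and whether this bears on the set was not tested. It was not the library that most often held the highest level of a gene: it did so for 1799 of the 12600 ranked genes (14.3%), against 3824 (30.3%) for Mcpip1 WT replicate 3 and 2955 (23.5%) for Mcpip1 DN replicate 3. A score of 1 or more was reached by 25 genes in Mcpip1 WT replicate 1, and by 2 to 39 genes when each of the others was ranked in the same way. A set of genes highest in 1 pool could thus be drawn from every library. Shield-stage germ layer and axis genes summed to between 8090 and 12224 CPM in all 6 libraries. Markers of later stages summed to at most 14.2 CPM for muscle, 17.4 CPM for neural tissue and 16.7 CPM for gut, liver, pancreas and lens. Those of later blood and endothelium summed to between 173 and 355 CPM.

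The 200 genes together held 16264 CPM in Mcpip1 WT replicate 1, against 8173 and 7085 CPM in Mcpip1 WT replicates 2 and 3 and 8706, 6057 and 8210 CPM in Mcpip1 DN. Scores ran between 0.54 and 1.77 with a median of 0.68. In CPM the first pool was 1.46-fold to 4.17-fold above the highest other library (median 1.72-fold), and 40 genes were at least 2-fold above it. Abundance varied widely: 60 genes had under 10 CPM in Mcpip1 WT replicate 1, 114 had 10 to 100 CPM and 26 had 100 CPM or more. Raw counts in that library ran between 106 and 102881 (median 325). For all 200 genes, the exact Poisson 95% intervals of Mcpip1 WT replicate 1 and of the highest other library did not overlap, and these intervals cover counting error only. The score set the same libraries against each other, so this follows largely from the rule and is no support for the set. The share over all ranked genes is not given here.

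**Figure D1:**
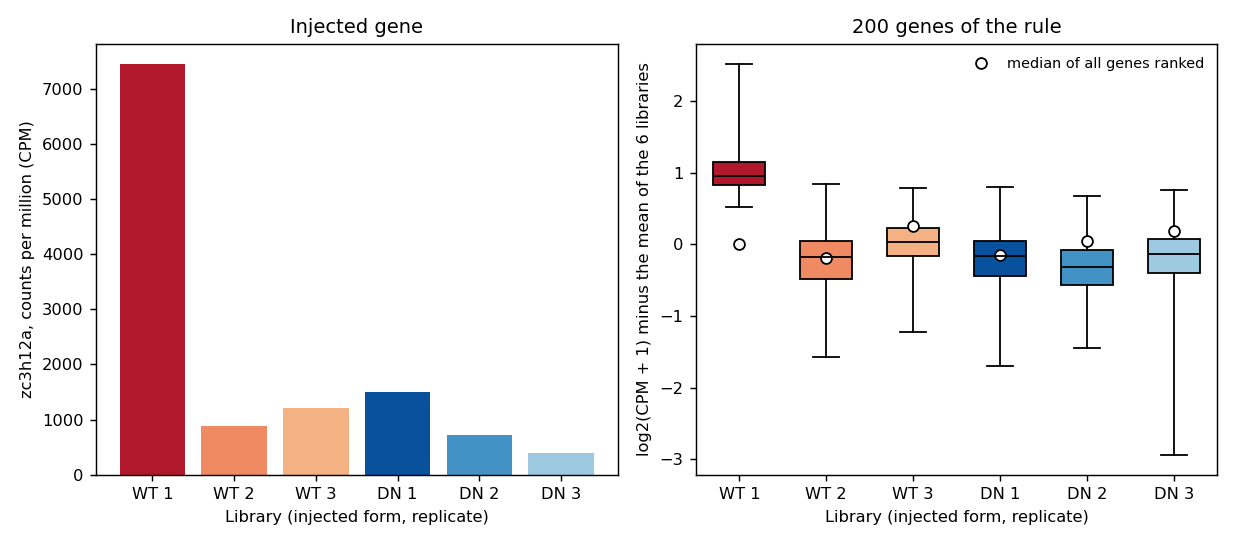
Left, CPM of *zc3h12a* in each library (bars start at 0). Right, the 200 genes as log2(CPM + 1) minus each gene's mean over the 6 libraries, with the median (line), quartiles (box) and full range (whiskers); open circles give the median of all 12600 ranked genes. The median of the set was 0.96 in Mcpip1 WT replicate 1, which the rule fixed, and lay between -0.32 and 0.04 in the other 5 libraries.

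The limit of the set did not fall at a gap. *Si:ch211-241j12.3*, *atp5mc1*, *GLT1D1*, *PSMA5* and *si:dkey-90l23.1* were just inside it, with scores between 0.540 and 0.543. Just outside were *dnm2b*, *RARS1*, *SLC8A2*, *TXNDC12* and *si:ch73-132f6.5*, with scores between 0.534 and 0.537. *TXNDC12*, a thioredoxin-like protein of the endoplasmic reticulum, had 106 CPM in Mcpip1 WT replicate 1, against 68.7 and 62.8 CPM in Mcpip1 WT replicates 2 and 3 and 58.9, 49.6 and 72.7 CPM in Mcpip1 DN.

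The 4 highest scores belonged to genes that were scarce in the remaining libraries. In 27 members, these 4 among them, the mean count of the other 5 libraries was under 50. Such members passed the minimum of the rule only through the first pool, so their scarcity elsewhere is partly a result of the choice. *Sspo*, which encodes the large secreted protein SCO-spondin of the Reissner fiber, had 13.2 CPM in Mcpip1 WT replicate 1, against 0.081 and 0.44 CPM in Mcpip1 WT replicates 2 and 3 and 3.17, 1.46 and 0 CPM in Mcpip1 DN. The count of 0 in Mcpip1 DN replicate 3 allows up to 3 counts, or 0.148 CPM. For *ecm1b*, which encodes an extracellular matrix protein, the first pool held 11.3 CPM, against 1.5 and 1.4 CPM in Mcpip1 WT replicates 2 and 3 and 3.0, 1.5 and 2.85 CPM in Mcpip1 DN. *GPC6*, named for a glypican, a heparan sulphate proteoglycan of the cell surface, had 8.95 CPM there, against 0.49 and 1.66 CPM in the other Mcpip1 WT libraries and 2.09, 2.17 and 2.31 CPM in Mcpip1 DN. Without the first pool, all 3 Mcpip1 DN libraries lay above both Mcpip1 WT libraries for *ecm1b* and *GPC6*. For *ecm1b* the nearest libraries were almost equal, with 1.5 CPM (37 counts) in Mcpip1 WT replicate 2 and 1.503 CPM (36 counts) in Mcpip1 DN replicate 2. *NHSL3* had 10.3 CPM in Mcpip1 WT replicate 1, against 1.38 and 0.78 CPM in replicates 2 and 3 and 0.57, 2.80 and 0.59 CPM in Mcpip1 DN. Here the highest of the remaining 5 was Mcpip1 DN replicate 2, and the groups overlapped.

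**Figure D2:**
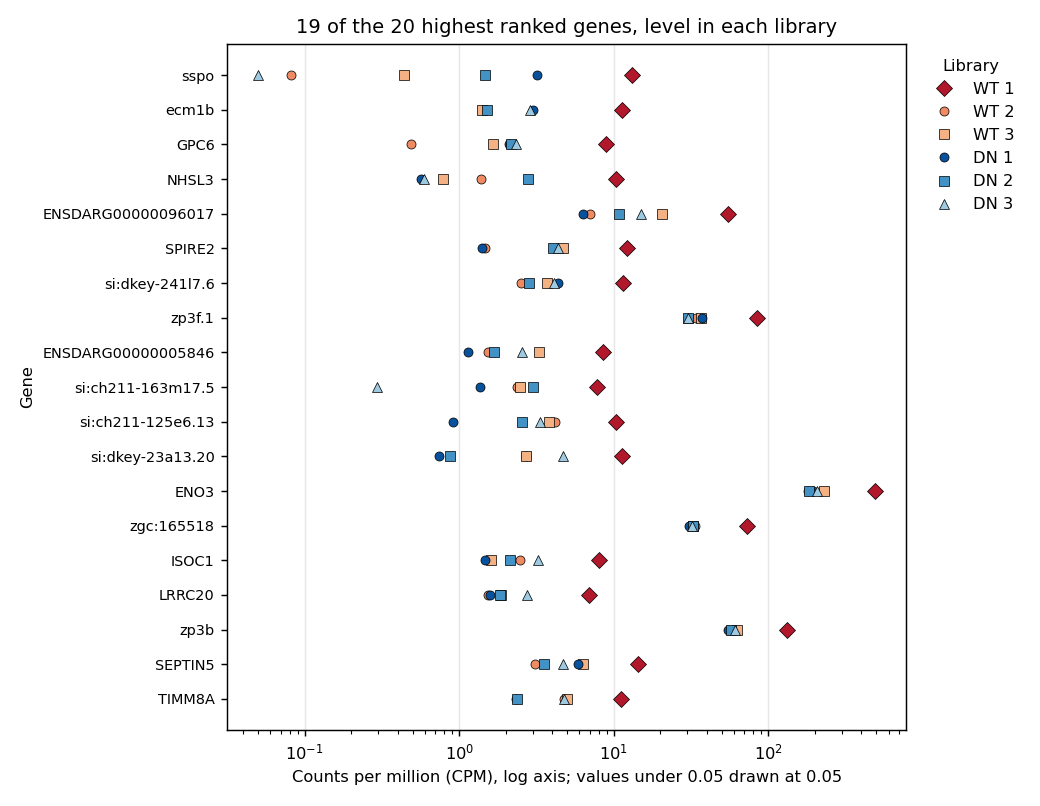
CPM (log axis) of 19 of the 20 genes with the highest scores, from the top down, in each of the 6 libraries; 0 CPM for *sspo* in Mcpip1 DN replicate 3 is drawn at 0.05. Mcpip1 WT replicate 1 (red diamonds) is rightmost in each row by the rule, and the remaining Mcpip1 WT (orange) and Mcpip1 DN (blue) libraries change order from gene to gene.

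Set against the lowest instead of the highest of the other libraries, the member furthest above was ENSDARG00000079327, which has no symbol. It had 21.1 CPM in Mcpip1 WT replicate 1, against 13.5 and 5.89 CPM in Mcpip1 WT replicates 2 and 3 and 13.0, 7.56 and 0.049 CPM in Mcpip1 DN. The value in Mcpip1 DN replicate 3 was a count of 1, while the remaining 4 libraries had 135 to 333 counts. In the first pool *zgc:173443* had 8.68 CPM, against 2.64 and 0.39 CPM in Mcpip1 WT and 4.18, 0.88 and 0.64 CPM in Mcpip1 DN, so that low and high libraries occurred in both groups. *Si:dkey-23a13.20* had 11.3 CPM, against 2.72 and 2.7 CPM in Mcpip1 WT and 0.74, 0.88 and 4.72 CPM in Mcpip1 DN.

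Abundant genes were also among the highest scores. *ENO3*, an enolase of glycolysis, had 492 CPM in Mcpip1 WT replicate 1, against 181 and 230 CPM in Mcpip1 WT replicates 2 and 3 and 195, 184 and 208 CPM in Mcpip1 DN. The 5 lower libraries thus differed by less than their distance to the first pool. At a lower level, *SPIRE2*, which nucleates actin filaments, had 12.2 CPM, against 1.46 and 4.66 CPM in Mcpip1 WT and 1.41, 4.05 and 4.38 CPM in Mcpip1 DN. For *SPIRE2* the lower of the other Mcpip1 WT libraries lay beside the lowest of Mcpip1 DN.

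The most abundant member had no symbol in the name table. ENSDARG00000115978 held 4556 CPM in Mcpip1 WT replicate 1, against 2257 and 1035 CPM in Mcpip1 WT replicates 2 and 3 and 2591, 1084 and 2238 CPM in Mcpip1 DN, and outside the first pool the groups overlapped. ENSDARG00000115988, also without a symbol, had 772 CPM, against 323 and 328 CPM in Mcpip1 WT and 499, 273 and 528 CPM in Mcpip1 DN. *Fthl27*, a ferritin heavy chain gene of iron storage, had 595 CPM, against 320 and 365 CPM in Mcpip1 WT and 397, 396 and 336 CPM in Mcpip1 DN. *Eif3ea*, a subunit of a translation initiation factor, had 424 CPM, against 269 and 252 CPM in Mcpip1 WT and 281, 217 and 287 CPM in Mcpip1 DN. For *fthl27* and *eif3ea* the remaining 5 libraries overlapped between the groups.

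Genes of the egg coat were the most frequent family in the set by the letters of the symbol. The zona pellucida (*zp*) genes encode glycoproteins of the coat around the egg. Of 17 ranked *zp* genes, 10 were highest in Mcpip1 WT replicate 1, beside 14.3% of all ranked genes. Members were 5 of the 17, beside 1.59% of all ranked genes: *zp3f.1*, *zp3b*, *zp3e*, *zp3* and *zp3d.2*, all named as *zp3* genes. The family was singled out by its members, so these counts are a description. Such shares were not particular to it among name families with 3 or more members. Of 20 ranked *lrrc* genes, 10 were highest in that pool and 4 were members, and of 12 ranked *coq* genes these counts were 4 and 3. *Zp3b* had 133 CPM in that pool, against 59.7 and 62.6 CPM in Mcpip1 WT replicates 2 and 3 and 55.0, 57.2 and 61.3 CPM in Mcpip1 DN. *Zp3f.1* had 85.0 CPM, against 34.2 and 36.7 CPM in Mcpip1 WT and 37.5, 30.5 and 30.2 CPM in Mcpip1 DN. The 5 lower libraries lay close together for both genes. *Zp3* had 129 CPM, against 49.4 and 66.7 CPM in Mcpip1 WT and 72.1, 54.8 and 51.4 CPM in Mcpip1 DN. *Zp3e* had 74.6 CPM, against 29.6 and 28.3 CPM in Mcpip1 WT and 36.9, 23.6 and 18.8 CPM in Mcpip1 DN. Close paralogs of this family share sequence, and how reads were divided between them is uncertain.

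Not all genes of the family shared this pattern. The 11 ranked *zp3* genes summed to 786 CPM in Mcpip1 WT replicate 1, against 419 and 541 CPM in Mcpip1 WT replicates 2 and 3 and 502, 448 and 421 CPM in Mcpip1 DN, and 8 of the 11 were highest in the first pool. Of the 786 CPM, 427 CPM came from members, which the rule chose for their level there. The *zp3* genes that were no members summed to 358.7 CPM, against 244.5 and 343.8 CPM in Mcpip1 WT and 298.7, 280.8 and 256.6 CPM in Mcpip1 DN. This sum was still highest in the first pool, close to Mcpip1 WT replicate 3. It leaves out the *zp3* genes with the highest scores, so a smaller distance was built in by the rule. The 6 ranked *zp2* genes, of which 2 were highest there, summed to 98.1 CPM, against 85.6 and 61.8 CPM in Mcpip1 WT and 100, 84.0 and 57.1 CPM in Mcpip1 DN. For the *zp2* sum, Mcpip1 DN replicate 1 was slightly above the first pool. Over a wider list of maternal egg and germ plasm genes, the first pool was also not the highest: their sum was 5472 CPM, against 4452 and 8788 CPM in Mcpip1 WT and 4446, 5673 and 6789 CPM in Mcpip1 DN. Of its 44 ranked genes, 6 (13.6%) were highest in Mcpip1 WT replicate 1, against 14.3% of all ranked genes, and *zp3* and *zp3b* were its 2 members of the set. In these pools, a change in the number of cells of a type cannot be told apart from a change in RNA per cell.

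**Figure D3:**
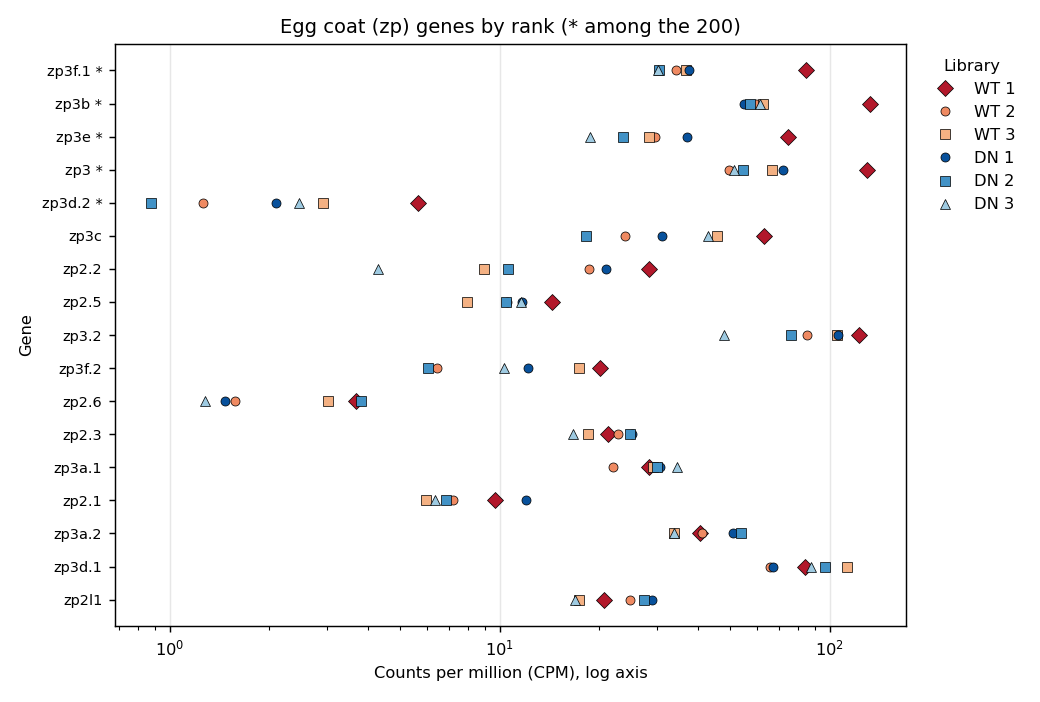
CPM (log axis) of the 17 ranked *zp* genes in each of the 6 libraries, ordered by score; asterisks mark the 5 members of the set. Mcpip1 WT replicate 1 (red diamonds) was highest for the upper 10 genes and lay among the remaining Mcpip1 WT (orange) and Mcpip1 DN (blue) libraries for the lower 7.

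Of a list of genes for folding and degradation in the endoplasmic reticulum, 46 were ranked, 20 (43.5%) were highest in Mcpip1 WT replicate 1 and 5 were members. Over all ranked genes, 14.3% were highest there and 1.59% were members. The list was written with earlier results of these data known, and its share is given as a description. *PPIB*, a prolyl isomerase, had 1058 CPM in the first pool, against 647 and 488 CPM in Mcpip1 WT replicates 2 and 3 and 684, 415 and 644 CPM in Mcpip1 DN. *PDIA3*, a disulphide isomerase that acts on glycoproteins, had 462 CPM, against 276 and 298 CPM in Mcpip1 WT and 215, 214 and 210 CPM in Mcpip1 DN. For *PDIA3* Mcpip1 WT replicates 2 and 3 also lay above all 3 Mcpip1 DN libraries, while for *PPIB* they overlapped with Mcpip1 DN. The place of the first pool was fixed by the rule for both genes. *CALR*, the calcium-binding chaperone calreticulin, had 132 CPM, against 88.8 and 82.7 CPM in Mcpip1 WT and 64.2, 60.2 and 83.0 CPM in Mcpip1 DN. *EDEM2*, which trims glycans of misfolded glycoproteins, had 22.9 CPM, against 6.37 and 12.4 CPM in Mcpip1 WT and 4.86, 5.97 and 8.41 CPM in Mcpip1 DN. *SELENOK*, a selenoprotein of the endoplasmic reticulum membrane, had 68.6 CPM, against 38.0 and 34.8 CPM in Mcpip1 WT and 42.4, 26.1 and 20.8 CPM in Mcpip1 DN.

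The list as a whole summed to 9132 CPM in the first pool, against 6750 and 7903 CPM in Mcpip1 WT replicates 2 and 3 and 5913, 5771 and 6659 CPM in Mcpip1 DN. These sums include the members, whose levels the rule used. Outside the first pool the groups almost met, with 6750 CPM in Mcpip1 WT replicate 2 and 6659 CPM in Mcpip1 DN replicate 3. The contrast over 6 libraries includes the first pool, whose values chose the members, so its counts are a description. Between Mcpip1 WT and Mcpip1 DN, edgeR's quasi-likelihood test put 4 of its 47 genes tested higher, beside 0.874% of all genes, and 0 lower, beside 1.27%, at an unadjusted p under 0.05 and a fold change over 1.5. *PDIA3* and *EDEM2* were among the 4, and the median log2 fold change of the list was 0.31, beside 0.0090 over all genes tested. When Mcpip1 WT replicate 1 was left out, 0 of 47 passed in either direction, beside 0.406% of all genes higher and 0.442% lower, and the median was 0.15, beside -0.01. In a list of the integrated stress response, 9 of 31 ranked genes (29%) were highest in the first pool, beside 14.3% of all ranked genes. Members among the 31 were 0, beside 1.59% of all ranked genes.

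**Figure D4:**
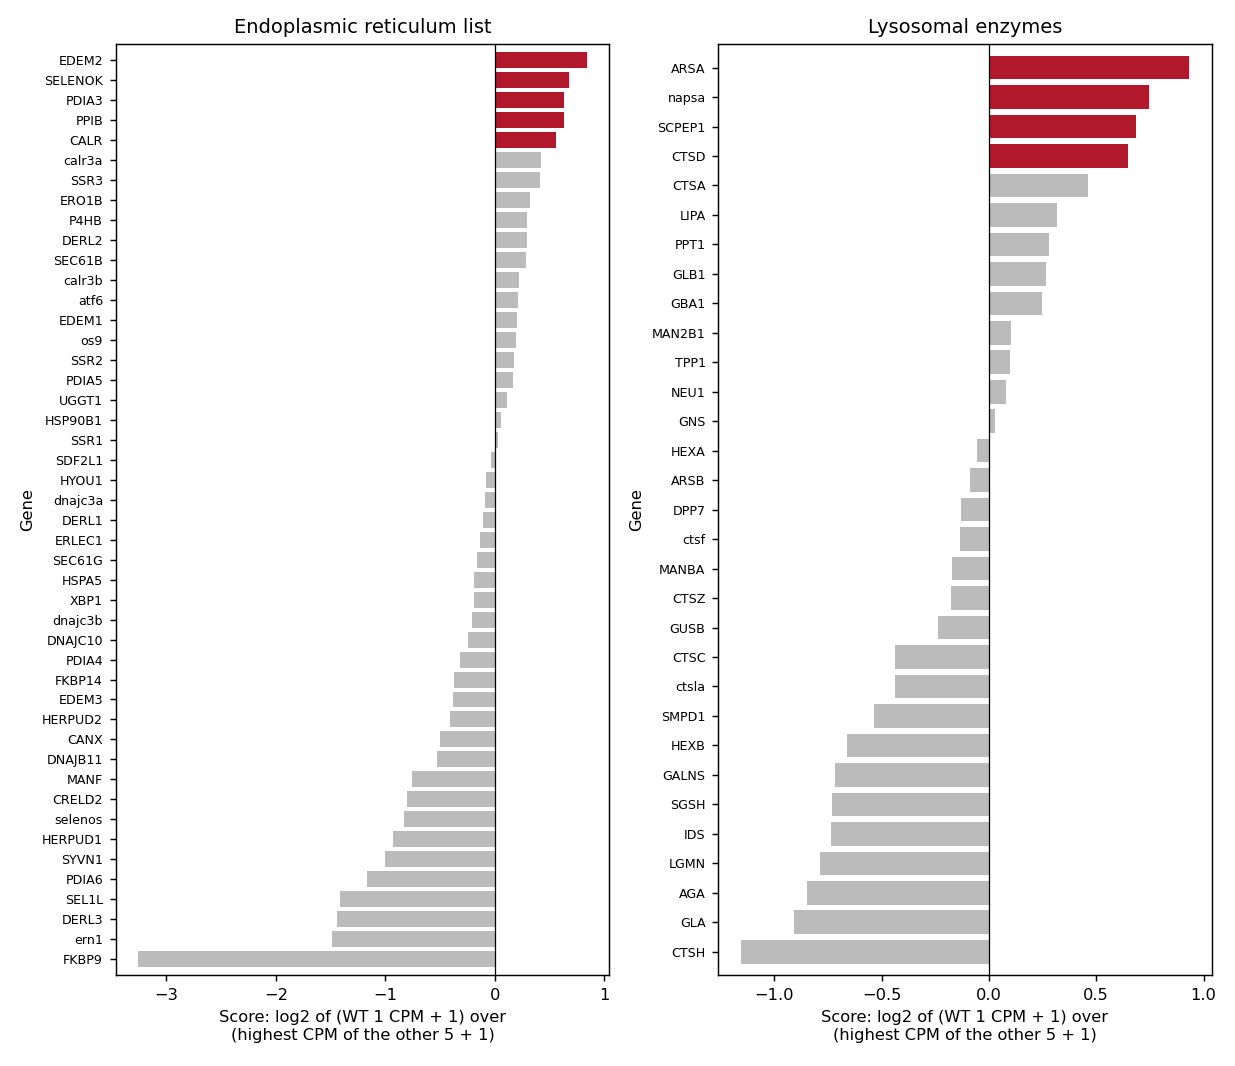
Score of each ranked gene in the endoplasmic reticulum list (46 genes, left) and among lysosomal enzymes (31 of 32 genes, right), as log2 of CPM + 1 in Mcpip1 WT replicate 1 over the highest CPM + 1 of the other 5 libraries. Red bars are members of the set (5 left, 4 right), and bars right of 0 are the genes highest in that pool (20 left, 13 right).

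A group of lysosomal enzymes was put together after the values were seen, since several members belonged to it. Of its 32 ranked genes, 14 (43.8%) were highest in Mcpip1 WT replicate 1, beside 14.3% of all ranked genes. *CTSD*, *napsa*, *SCPEP1* and *ARSA* were among its 5 members of the set, which held 1.59% of all ranked genes. Because members prompted the group, these counts are a description. *CTSD*, the aspartic protease cathepsin D, had 428 CPM in that pool, against 273 and 244 CPM in Mcpip1 WT replicates 2 and 3 and 266, 225 and 240 CPM in Mcpip1 DN. *ARSA*, the sulphatase that degrades sulphatides, had 11.8 CPM, against 5.72 and 4.66 CPM in Mcpip1 WT and 4.86, 2.80 and 2.41 CPM in Mcpip1 DN. The sum of the group was not highest in the first pool: it was 6092 CPM there, against 5980 and 4570 CPM in Mcpip1 WT and 7064, 5994 and 4632 CPM in Mcpip1 DN. The most abundant enzyme of the group, *ctsla* (cathepsin L), was no member and had 3837 CPM in the first pool, against 4106 and 2887 CPM in Mcpip1 WT and 5201, 4129 and 2848 CPM in Mcpip1 DN.

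Some members encode mitochondrial proteins, and how many do was not counted. *COQ2*, *COQ5* and *COQ10A*, which serve the synthesis or binding of coenzyme Q, the electron carrier of the respiratory chain, were 3 of 12 ranked genes in a group also put together after the values were seen. Of the 12, 4 (33.3%) were highest in Mcpip1 WT replicate 1, beside 14.3% of all ranked genes, of which 1.59% were members. The sum of the 12 was not highest there: it was 203 CPM, against 111 and 223 CPM in Mcpip1 WT replicates 2 and 3 and 143, 181 and 220 CPM in Mcpip1 DN. *COQ3* and *COQ10B*, no members, were highest in Mcpip1 WT replicate 3 and Mcpip1 DN replicate 3. The group left out 2 ranked genes that are both named *COQ8A*, no members and both highest in Mcpip1 DN replicate 3. Of these, ENSDARG00000020123 was lowest in the first pool, with 38.3 CPM, against 64.2 and 125 CPM in Mcpip1 WT and 47.0, 122 and 141 CPM in Mcpip1 DN. *COQ5*, a methyltransferase, had 19.2 CPM in Mcpip1 WT replicate 1, against 4.79 and 10.9 CPM in Mcpip1 WT replicates 2 and 3 and 12.0, 11.1 and 9.5 CPM in Mcpip1 DN. *COQ10A* had 17.6 CPM, against 1.87 and 9.42 CPM in Mcpip1 WT and 1.81, 9.48 and 3.84 CPM in Mcpip1 DN. Its remaining libraries fell into low and high values within each group. *TIMM8A*, a chaperone of the mitochondrial intermembrane space, had 11.1 CPM, against 4.79 and 4.97 CPM in Mcpip1 WT and 2.32, 2.38 and 4.77 CPM in Mcpip1 DN. *Atp5mc1*, which encodes the membrane ring subunit of ATP synthase, had 340 CPM, against 213 and 234 CPM in Mcpip1 WT and 157, 136 and 227 CPM in Mcpip1 DN. *COA4*, an assembly factor of cytochrome c oxidase, had 9.08 CPM, against 0.73 and 2.75 CPM in Mcpip1 WT and 3.73, 3.17 and 4.97 CPM in Mcpip1 DN. Outside the first pool the groups almost met for *TIMM8A*, with 4.785 CPM (118 counts) in Mcpip1 WT replicate 2 and 4.773 CPM (97 counts) in Mcpip1 DN replicate 3. For *COA4* both remaining Mcpip1 WT libraries lay below Mcpip1 DN.

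Members are 1.59% of the ranked genes, so a list of the sizes below would hold under 1 member at that share, and counts of 0 or 1 set no list apart. *Nfkbiaa*, which encodes an inhibitor of NF-kB and is among the genes that NF-kB itself induces, was the only member among 15 ranked genes of an inflammation list. It had 42.4 CPM in Mcpip1 WT replicate 1, against 27.2 and 20.5 CPM in Mcpip1 WT replicates 2 and 3 and 19.7, 18.5 and 14.1 CPM in Mcpip1 DN. Outside the first pool, whose place the rule fixed, both Mcpip1 WT libraries lay above Mcpip1 DN, as in 6.48% of all ranked genes. The nearest libraries were close, with 20.5 CPM in Mcpip1 WT replicate 3 and 19.7 CPM in Mcpip1 DN replicate 1. Without the first pool, edgeR's quasi-likelihood test gave *nfkbiaa* an unadjusted p of 0.308. *Trim25*, a ubiquitin ligase of the antiviral RNA-sensing pathway, was the only member among 5 ranked interferon response genes, with 5.98 CPM, against 2.47 and 3.14 CPM in Mcpip1 WT and 1.24, 1.8 and 3.15 CPM in Mcpip1 DN. *CCT2*, a subunit of the cytosolic chaperonin, was the only member among 22 chaperone genes and had 291 CPM, against 186 and 158 CPM in Mcpip1 WT and 198, 167 and 162 CPM in Mcpip1 DN. *ELOVL5*, which elongates fatty acids, was a member from a list of lipid synthesis genes and had 12.5 CPM, against 3.93 and 8.02 CPM in Mcpip1 WT and 6.84, 4.97 and 3.15 CPM in Mcpip1 DN. *Anxa1b*, an annexin, was the only member among 31 genes of the enveloping layer. Among 23 genes of p53 targets and apoptosis, 14 of hypoxia, 16 immediate early genes, 45 mRNA decay factors, 55 germ layer genes and 15 of the yolk syncytial layer, 0 were members. The same held for 19 genes of oxidative stress and metals, 43 of the secretory pathway and Golgi, 43 of the cell cycle, and the few ranked markers of later muscle, blood, neural and gut tissue.

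Some members followed each other in an order of ranked genes along the genome. By name, 154 members matched 1 RefSeq gene, and 151 of these were protein coding. The order on the RefSeq assembly GRCz12tu held only the 10706 ranked genes matched in this way, so other genes may lie between its entries. In it, 6 pairs of members followed each other: *smyd4* and *COA4*, *PHF2* and *FAM120A*, *zgc:111868* and *GLRX3*, *APOD* and *SAMD7*, *si:dkey-241l7.6* and *si:dkey-241l7.5*, and *CALR* and *TOR3A*. How many pairs other ranked genes would give was not counted. These pairs were named for their position after the values were seen. Members also shared genomic clones in their names: all 4 ranked genes named after *si:dkey-241l7* were highest in the first pool and 3 were members. *Si:dkey-241l7.6* had 11.4 CPM in Mcpip1 WT replicate 1, against 2.51 and 3.71 CPM in Mcpip1 WT replicates 2 and 3 and 4.35, 2.84 and 4.13 CPM in Mcpip1 DN. *Si:dkeyp-98a7.9* had 71.1 CPM, against 14.2 and 35.3 CPM in Mcpip1 WT and 16.8, 12.2 and 18.3 CPM in Mcpip1 DN, and its neighbour by name, *si:dkeyp-98a7.8*, had 11.3 CPM, against 3.61 and 6.98 CPM in Mcpip1 WT and 5.43, 3.13 and 3.79 CPM in Mcpip1 DN. In both, Mcpip1 WT replicate 3 was the second highest library. Neighbouring genes can share reads where they overlap, and the strand setting of the counting is not given in the sources used here.

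A ribosomal RNA gene was a member as well. *5_8S_rRNA*, named for an RNA of the large ribosomal subunit that poly(A) selection should remove, had 184 CPM in Mcpip1 WT replicate 1, against 75.5 and 71.3 CPM in Mcpip1 WT replicates 2 and 3 and 92.2, 79.0 and 89.3 CPM in Mcpip1 DN. The first pool was thus highest in this RNA and in reads aligned to several places, and the part of either in the levels of the set was not tested.

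The next question was which of the remaining libraries came nearest to the first pool. For 74 members (37%) the second highest library was Mcpip1 WT replicate 3, which was the highest of these 5 libraries in 35.2% of all ranked genes. Mcpip1 DN replicate 1, the library with the second highest *zc3h12a*, was second for 38 members (19%), beside 14.7% of ranked genes. Mcpip1 WT replicate 2 was second for 36 members (18%), beside 12.2%, and Mcpip1 DN replicates 2 and 3 for 17 (8.5%) and 35 (17.5%), beside 11.9% and 25.9%. Among all 1799 genes highest in the first pool, which are the like comparison, the shares were 34.3% for Mcpip1 WT replicate 3, 18% for Mcpip1 DN replicate 1, 20.8% for Mcpip1 WT replicate 2, and 9.51% and 17.5% for Mcpip1 DN replicates 2 and 3. The members' shares differed from these by at most 2.8 percentage points.

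Mcpip1 WT was then compared with Mcpip1 DN over all 6 libraries with edgeR's quasi-likelihood test. The rule used this contrast through Mcpip1 WT replicate 1, so nothing is read from the members' counts. All 200 were tested among 16126 genes, and 17 were higher in Mcpip1 WT at an unadjusted p under 0.05 and a fold change over 1.5, beside 0.874% of all genes tested. Lower in Mcpip1 WT were 0 members, beside 1.27% of genes. All 200 log2 fold changes were above 0, with a median of 0.66. At a Benjamini-Hochberg adjusted p under 0.05, edgeR called 0 genes of all tested, with 356 at an unadjusted p under 0.05, and DESeq2 called 1 gene, which was no member. Leaving out Mcpip1 WT replicate 1 brought the 17 to 0, and leaving out Mcpip1 DN replicate 2 brought them to 7. They were 28 without Mcpip1 WT replicate 2, 44 without replicate 3 of that group and 26 when Mcpip1 DN replicate 1 was left out. Except without Mcpip1 WT replicate 1, the shares of all genes tested that passed in these fits are not given here. The counts are therefore no result about the members.

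The same test was run without Mcpip1 WT replicate 1, with Mcpip1 WT replicates 2 and 3 against 3 Mcpip1 DN libraries. These 5 libraries were not free of the rule, which used their highest CPM. In addition, 27 members passed its count minimum only through the first pool. The members' values in this contrast are therefore a description. Of the 200 members, 0 were higher, beside 0.406% of 16976 genes tested, and 0 were lower, beside 0.442%. By DESeq2's Wald test these counts were also 0. No member had an unadjusted p under 0.05 by edgeR, where 144 genes did, and the smallest p of a member was 0.0805. The median log2 fold change of the members was 0.13, beside -0.01 over all genes tested, and 130 of 200 (65%) were above 0, beside 48.7% of genes. The like values over the 1799 genes highest in the first pool are not given here. With a further Mcpip1 DN library left out, 1 member was higher without replicate 1 and 1 was lower without replicate 3. The shares of all genes tested that passed in these fits are not given here, so the counts are no result about the members. Over the 5 libraries, log2 fold changes of single members ran between -2.77 and 1.2. A p that misses the threshold with 2 and 3 libraries does not show that the levels were alike.

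**Figure D5:**
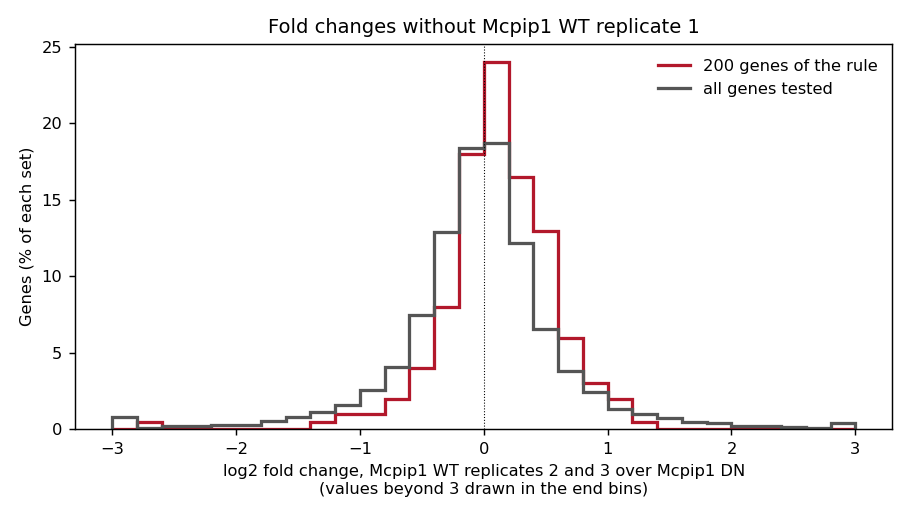
Distribution of log2 fold changes of Mcpip1 WT replicates 2 and 3 over Mcpip1 DN (edgeR), as a percentage of the 200 genes of the rule (red) and of all 16976 genes tested (grey), in bins of 0.2. The red curve has its median at 0.13 and the grey one at -0.01.

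Without regard to any model, Mcpip1 WT replicates 2 and 3 both lay above all 3 Mcpip1 DN libraries in 28 members (14%), beside 6.48% of all ranked genes, and both lay below in 6 members (3%), beside 5.5%. The rule used the highest of these libraries, and the shares over the 1799 genes highest in the first pool are not given here. The 28 included *UNC5C*, a netrin receptor, with 22.2 CPM in Mcpip1 WT replicate 1 and 11.5 and 13.6 CPM in replicates 2 and 3, against 8.59, 4.30 and 4.58 CPM in Mcpip1 DN. Its log2 fold change was 1.06 (standard error 0.54) without the first pool, and edgeR's quasi-likelihood test gave it an unadjusted p of 0.0805 (adjusted p = 1.00). Without Mcpip1 DN replicate 1 as well, this value was 1.56, with an unadjusted p of 0.0187 by edgeR, and with each of the other 4 libraries left out instead it lay between 0.86 and 1.14, with an unadjusted p of 0.128 or more.

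*Prkd4*, a kinase of the protein kinase D family, had 11.3, 5.60 and 6.63 CPM in Mcpip1 WT, against 2.09, 3.22 and 3.64 CPM in Mcpip1 DN, and a log2 fold change of 1.04 (standard error 0.60) without the first pool. *TOR3A*, a torsin ATPase of the endoplasmic reticulum, had 11.8, 6.77 and 6.10 CPM in Mcpip1 WT, against 3.0, 2.67 and 4.13 CPM in Mcpip1 DN. *UFD1*, a cofactor of the ATPase that extracts proteins from the endoplasmic reticulum for degradation, had 98.1, 65.6 and 52.8 CPM in Mcpip1 WT, against 47.7, 36.3 and 31.1 CPM in Mcpip1 DN. Their log2 fold changes without the first pool were 1.00 (standard error 0.59) and 0.63 (standard error 0.38), and that of *PDIA3* was 0.42 (standard error 0.27). With a further library left out, the value of *UFD1* lay between 0.22 without Mcpip1 WT replicate 2 (edgeR, unadjusted p = 0.641) and 0.94 without Mcpip1 WT replicate 3 (unadjusted p = 0.0496), so its size depended on which Mcpip1 WT library stayed. *SYCP1*, a protein of meiotic chromosome pairing, had 42.9, 19.3 and 27.5 CPM in Mcpip1 WT, against 12.0, 17.8 and 17.1 CPM in Mcpip1 DN. In these genes Mcpip1 WT replicates 2 and 3 were above all 3 Mcpip1 DN pools, while the place of the first pool was fixed by the rule. Without the first pool, over the 5 remaining libraries, each gene had an unadjusted p above 0.05 by edgeR.

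The 6 members in which both remaining Mcpip1 WT libraries lay below Mcpip1 DN were *COA4*, *GPC6*, *ecm1b*, *MAN2A1*, *5_8S_rRNA* and *si:ch211-225h24.2*. *MAN2A1*, a mannosidase of the Golgi, had 16.2 CPM in Mcpip1 WT replicate 1 and 4.83 and 4.40 CPM in replicates 2 and 3, against 7.18, 7.52 and 4.92 CPM in Mcpip1 DN. Without the first pool, the log2 fold change of *COA4* was -1.29 (standard error 0.80) and that of *GPC6* was -1.14 (standard error 0.99), both with an unadjusted p above 0.05 by edgeR. For these 6 genes the first pool was above Mcpip1 DN by the rule, and the other Mcpip1 WT pools were below it. For *ecm1b* the nearest libraries were almost equal, with 1.5 CPM in Mcpip1 WT replicate 2 and 1.503 CPM in Mcpip1 DN replicate 2.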

How the data were processed

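RNA was sequenced on the Ion Proton after poly(A) selection. For each library the authors deposited the raw read count of every Ensembl gene, and the submitters' processing notes name STAR 2.7.10a, Bowtie2 2.4.4, HTSeq, DESeq2 and the build GRCz11. The annotation release and strand setting are not given in the sources used here. The last 5 lines of each file, reads given to no gene (16.5% to 26.1% of all counts), entered neither library sizes nor tests.

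The titles of the samples gave groups and replicate numbers. The members and the gene lists were chosen with earlier results of these data known. Gene names are spelled as in the table that pairs identifiers with symbols (28988 of 32057 matched). Counts were tested in R 4.3.3 with edgeR 4.0.16 (filterByExpr with a minimum count of 10, TMM, glmQLFit and glmQLFTest, no covariates), with Benjamini-Hochberg adjustment over all genes tested, and with DESeq2 1.42.0 as an alternative. A gene was called at the threshold of the study, a fold change over 1.5 and an unadjusted p under 0.05. The scripts were tested on simulated data. CPM are not scaled by gene length, so levels are compared between libraries and not between genes.

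Genes were named if they were *zc3h12a*, had the 20 highest scores, lay among the 5 on either side of the limit, had the 10 highest mean CPM, or had the 10 highest scores against the lowest other library. Also named were members whose remaining Mcpip1 WT libraries did not overlap Mcpip1 DN (the 10 smallest p each way), members in a list, and members of a name family of 3 or more. *PHF2*, *FAM120A*, *GLRX3*, *APOD*, *SAMD7*, *smyd4*, *si:dkey-241l7.5*, *si:dkeyp-98a7.9*, *si:dkeyp-98a7.8*, *ARSA*, *napsa*, *SCPEP1*, *COQ3*, *COQ8A*, *COQ10B* and *ctsla* were named after their values were seen. Alternatives were other scalings, pseudocounts, count minimums and filters, a block for the replicate number, and fits or rankings without each library in turn. The results of 2 genes are not reported here. A planned search for promoter motifs was not run because no promoter sequence was used here.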

Additional observations from a re-analysis of the deposited data

How the results depend on the processing

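Membership depended on the settings of the rule. Of the 200 genes, 119 were shared with the set from a mean raw count of 20 or more, 88 with a mean raw count of 200 or more and 94 when the median of the other 5 libraries replaced the highest, and between 121 (Mcpip1 WT replicate 3) and 175 (Mcpip1 DN replicate 2) when the library in brackets was left out, the extremes over the other 5. TMM library sizes kept 141, and pseudocounts of 0.1 and 5 CPM kept 190 and 158. Over all 6 libraries, 17 members were higher by edgeR, 32 when all genes with at least 1 count were tested, and between 0 and 44 when each library was left out. Without Mcpip1 WT replicate 1, 0 were higher and 0 lower, and leaving out a further Mcpip1 DN library gave 0 to 1 higher and 0 to 1 lower. The shares of all genes tested that passed under these alternatives are not given here, so the counts are no result about the members. Where a fit left a lone Mcpip1 WT library, it was assumed to vary like Mcpip1 DN. All 200 log2 fold changes were above 0 over 6 libraries, beside 50.8% of all genes tested. With Mcpip1 WT replicate 1, which chose the members, left out, 65% were above 0, beside 48.7% of all genes, and 70 members were below 0. *COA4* and *GPC6* were among these, with log2 fold changes of -1.29 and -1.14, against 0.10 and 0.77 over 6 libraries. The 8 genes recomputed over 6 libraries, and the 7 recomputed without that pool, kept their direction within their own alternatives. The 8 were members, highest in Mcpip1 WT replicate 1 by the rule. In the 7, Mcpip1 WT replicates 2 and 3 did not overlap Mcpip1 DN. Their direction thus followed largely from how they were chosen and is no support for it.

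The samples share only a replicate number: same-numbered libraries of the groups had correlations of their deviations of 0.0065, -0.0834 and 0.3011, and Mcpip1 WT replicate 2 correlated best with Mcpip1 DN replicate 1 (0.2913). With the replicate block, 17 members were higher and 0 lower over 6 libraries. Without Mcpip1 WT replicate 1, the block gave 4 higher and 0 lower, with log2 fold changes of 1.56 for *UNC5C* and 0.87 for *UFD1*. In that fit Mcpip1 DN replicate 1 was alone in its block and added nothing to the contrast. Leaving that library out instead of using the block gave 1.56 and 0.90. The shares of all genes tested that passed with the block are not given here. Over 6 libraries with the block, *EDEM2* (0.95) and *SYCP1* (0.88) no longer passed the threshold. For low members the depth limits what can be seen, since a count of 0 allows up to 0.122 to 0.17 CPM.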
